A study of Homo sapiens with 91 samples.

Results

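The genes described here are those of the proteasome, chosen as every gene whose symbol starts with PSM, then 1 letter from A to G, then digits only, which leaves out pseudogenes. The rule found 48 genes among 62710. They comprise 8 genes of the 20S alpha ring, 7 of the constitutive beta ring, 4 inducible or thymic beta subunits, 6 ATPases and 3 other subunits of the 19S base, 8 subunits of the 19S lid, 3 chaperones of 19S assembly, 5 genes of the proteasome activators and PI31, and 4 chaperones of 20S assembly. RNA was measured in 3 human cancer lines, MOLT4 (acute lymphoblastic leukemia), PSN1 (pancreatic adenocarcinoma) and RH4 (rhabdomyosarcoma, written RH1 in the series' design text). Cells received DMSO (the vehicle), the CDK9 inhibitor KB-0742 or the CDK9 degrader KI-CDK9d-32, and were lysed after 2, 4 or 8 h. The libraries used here number 91, in 23 groups of 4, except for 3 in the MOLT4 vehicle group at 4 h. RH4 was followed at 4 and 8 h, and PSN1 had KI-CDK9d-32 and vehicle alone at 2 h. The labels give no doses, so readouts of the compounds are compared at matched times with doses unknown. The labels speak of biological replicates without saying whether they came from separate cultures, and p-values therefore reflect library-to-library spread, which may be partly technical.

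The proteasome degrades proteins that carry ubiquitin chains. Its 20S core is a stack of alpha and beta rings, with the proteolytic sites on the beta subunits PSMB5, PSMB6 and PSMB7, for which immune cells can substitute the inducible PSMB8, PSMB9 and PSMB10. The 19S particle binds ubiquitin, removes it and unfolds the substrate with a ring of ATPases. Dedicated chaperones, PSMG1 to PSMG4 for the core and PSMD5, PSMD9 and PSMD10 for the base, help to assemble these parts and leave the finished particle. CDK9 is the kinase that releases paused RNA polymerase II into elongation.

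The libraries held between 1598283 and 3240753 counts assigned to genes. All 6 marker genes listed for each line averaged above 1 TPM in that line, with summed levels of 357 to 1002 TPM in MOLT4, 1354 to 3652 in PSN1 and 719 to 1238 in RH4, while the other lines' lists summed to at most 40.3 TPM in any library. Equal amounts of ERCC and SIRV spike-in RNA had been added to the lysates. They took 14.5% of counts on average in the MOLT4 vehicle libraries at 8 h, 21.5% with KB-0742 and 39.9% after KI-CDK9d-32. In 5 libraries, all from treated MOLT4 cells, the share was above 30%, and it was highest in KI-CDK9d-32 replicate 3 at 8 h (61.5%). Mitochondrial transcripts averaged 11.6% of gene counts with vehicle and 24.0% with KI-CDK9d-32 in MOLT4 at 8 h, and 20.7% with vehicle and 29.9% with KB-0742 in RH4. Their part in the changes below was not tested. Both compounds act on the CDK9 protein, so CDK9 mRNA does not check the labels. At 8 h its relative log2 fold change was 1.16, 0.18 and 1.48 with KB-0742 in MOLT4, PSN1 and RH4, called in MOLT4 and RH4, and 0.09, 0.12 and 0.64 with KI-CDK9d-32, not called in any line.

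Changes were tested on 2 scales. The relative change, given throughout, uses TMM scaling, which centers the bulk of genes near no change, and the change per spike-in, given beside it for counts and for the members the results turn on, divides by the counts of the added RNA. Cell numbers at lysis are not given in the sources used here, so on the second scale fewer cells and less RNA per cell cannot be told apart. A change was called at an adjusted p below 0.05 in edgeR's quasi-likelihood test over all genes tested, with Benjamini-Hochberg adjustment, and every adjusted p below comes from that test unless limma is named. Of the 48 genes, 46 had enough counts for the test in MOLT4 and PSN1 and 44 in RH4. PSMA8, a testis alpha subunit, and PSMB11, the thymic beta subunit, were tested in no line. PSMB8 and PSMB9 were listed at 0 in all 8 RH4 vehicle libraries and not tested there. Where groups are said below not to overlap, this describes the libraries of that gene. The share of all genes without overlap was not counted.

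In vehicle-treated cells the levels ran from PSME1, a subunit of the PA28 activator, and PSMA7, of the alpha ring, down to PSME4, the PA200 activator. PSMA7 was at 1346 ± 67.4 TPM in MOLT4 (SD, n = 11), 1477 ± 188 in PSN1 (n = 12) and 1701 ± 81.9 in RH4 (n = 8). PSME1 was at 1500.1 ± 65.5, 592 ± 51.3 and 539 ± 56.9 TPM. PSMB3, of the beta ring, was at 1089 ± 46.0, 872 ± 93.0 and 798 ± 52.6 TPM. The first 2 places thus went to PSME1 and PSMA7 in MOLT4 and to PSMA7 and PSMB3 in PSN1 and RH4. PSME4 was at 1.82 ± 0.371, 3.00 ± 0.643 and 3.87 ± 0.591 TPM, and PSMD5, a base chaperone, at 8.35 ± 1.503, 4.02 ± 1.04 and 11.4 ± 5.00. The chaperone PSMG1 stood between them at 69.4 ± 7.99, 65.0 ± 9.96 and 45.0 ± 6.67 TPM.

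As a sum, the 48 genes held on average a smaller part of the gene counts after 8 h with either compound. In MOLT4 at 8 h they held 14079 ± 479.6 CPM (counts scaled to each library's total of gene counts) with vehicle (SD, n = 4), 9069 ± 1319.8 with KB-0742 and 7521 ± 799 after KI-CDK9d-32. The sums in RH4 were 11485 ± 283, 6932 ± 148 and 9385 ± 494, so that the inhibitor gave the lower mean there. In PSN1 they were 11316 ± 587, 9435 ± 763 and 10326 ± 644, where the KI-CDK9d-32 libraries (9494 to 10994) overlapped vehicle (10683.5 to 12091). These CPM carry no TMM scaling, and the sums need not follow the relative changes of single genes below. In PSN1 with KI-CDK9d-32 at 8 h, 14 of the 17 members called in relative terms were higher. Per 1000 spike-in counts the sums in the same order were 83.9 ± 12.3, 33.7 ± 7.35 and 12.7 ± 6.04 in MOLT4, 111 ± 25.2, 39.6 ± 6.72 and 64.9 ± 14.1 in RH4, and 78.9 ± 5.33, 47.8 ± 12.5 and 50.5 ± 10.3 in PSN1.

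**Figure D1:**
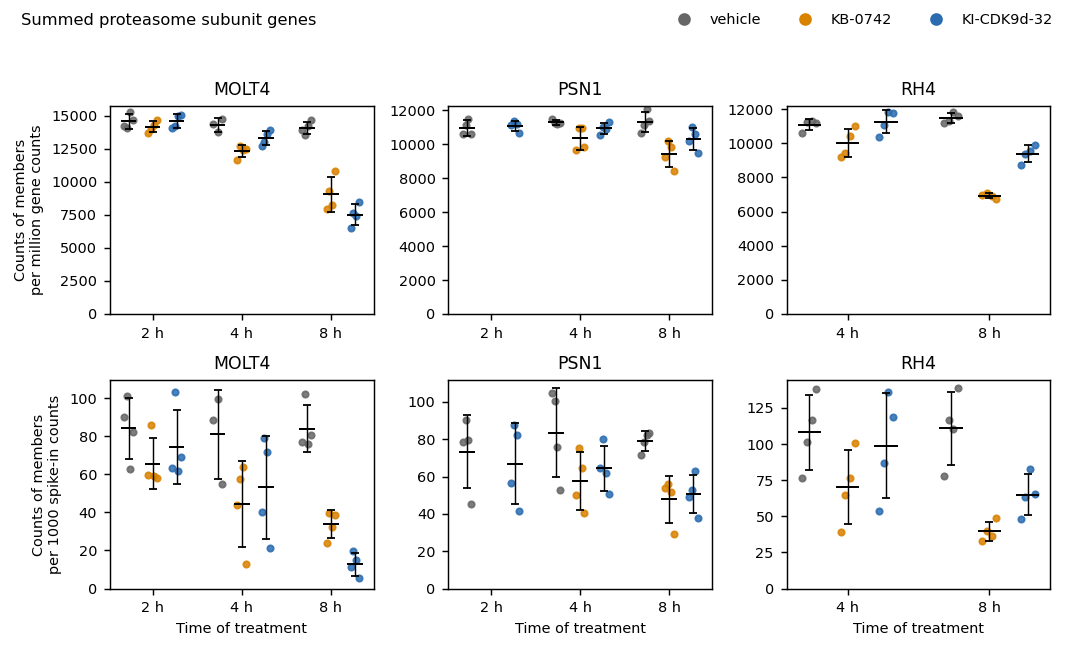
Summed counts of the 48 proteasome genes in each library, in CPM of gene counts and per 1000 spike-in counts, by line, treatment and time in hours. Points are libraries, bars group means and whiskers 1 SD. On both scales the MOLT4 libraries with KI-CDK9d-32 at 8 h have the lowest mean of their line, 7521 and 12.7.

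In MOLT4 more proteasome genes were called higher than lower relative to other genes at 2 and 4 h, and more lower than higher at 8 h. With KI-CDK9d-32 at 2 h, 6 of 46 were higher and 1 lower, against 4.56% and 5.41% of all 11664 genes tested. With KB-0742 at 2 h, 26 were higher and 3 lower (13.2% and 12.9% of all genes). At 4 h 17 were higher and 7 lower with KI-CDK9d-32 (13.6% and 18.9%), and 20 and 8 with KB-0742 (18.1% and 17.7%). At 8 h 7 were higher and 29 lower with KI-CDK9d-32 (20.8% and 28.7%), and 10 and 23 with KB-0742 (23.4% and 25.8%). The share of proteasome genes called higher was thus above that of all genes at 2 and 4 h, and the share called lower was above it at 8 h. The median change of the tested members went from 0.15 at 2 h through 0.26 at 4 h to −0.42 log2 units at 8 h with KI-CDK9d-32 and from 0.33 through 0.23 to −0.24 with KB-0742, beside medians over all genes of −0.18 and −0.10 at 8 h. With KI-CDK9d-32 at 2 h DESeq2 called 11. The 7 calls became 4, 3, 3 and 4 without KI-CDK9d-32 replicate 2, KI-CDK9d-32 replicate 3, vehicle replicate 1 and vehicle replicate 4.

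In PSN1 with KI-CDK9d-32 at 2 h, 0 of 46 genes were called higher and 0 lower by edgeR (0.128% and 0.345% of all 12471 genes tested), 6 had an unadjusted p under 0.05, and DESeq2 called 1. At 4 h 7 were higher and 0 lower with KI-CDK9d-32 (3.62% and 3.74%). Those 7 calls became 2 without the filter on low counts, 2 without KI-CDK9d-32 replicate 3 and 4 without KI-CDK9d-32 replicate 4, vehicle replicate 2 or vehicle replicate 4. KB-0742 at 4 h gave 19 higher and 1 lower (11.3% and 12.6%), and 11 calls without KB-0742 replicate 3 and 11 without the filter. At 8 h 14 were higher and 3 lower with KI-CDK9d-32 (11% and 9.6%), and 11 and 6 with KB-0742 (15.1% and 15.1%). The members' median lay between 0.13 and 0.27 log2 units in the 5 comparisons.

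RH4 with KI-CDK9d-32 at 4 h had 4 of 44 genes higher and 0 lower (3.47% and 1.87% of all 12058 genes tested), and 2 calls without KI-CDK9d-32 replicate 3, vehicle replicate 2 or vehicle replicate 4, while DESeq2 called 8. KB-0742 at 4 h gave 23 higher and 6 lower (15.4% and 16.2%). At 8 h the counts were 3 and 5 with KI-CDK9d-32 (9.2% and 6.06%) and 14 and 17 with KB-0742 (22.5% and 23%). The members' medians at 8 h were 0.05 and −0.01 log2 units.

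Per spike-in, 0 members were called higher by edgeR in any comparison with vehicle, and 0 had an unadjusted p under 0.05 with a positive value. The share of all genes called higher on this scale is not given, so this count cannot be read as particular to the proteasome genes. At 8 h 46 of 46 were lower in MOLT4 with KI-CDK9d-32 (91% of all genes) and 38 after KB-0742 (54.3%). PSN1 had 31 lower with KI-CDK9d-32 (51.2%) and 27 after KB-0742 (46.8%), and RH4 had 34 of 44 (51.6%) and 44 of 44 (77.9%). At 4 h, with KI-CDK9d-32 and KB-0742 in turn, 12 and 23 were lower in MOLT4 (37% and 50.5%), 0 and 12 in PSN1 (12.5% and 42.3%) and 0 and 28 in RH4 (0.738% and 61.9%). At 2 h the counts were 0 and 4 in MOLT4 (1.65% and 19.6%) and 0 with KI-CDK9d-32 in PSN1 (0.104%). Where these counts are 0, the members lower at an unadjusted p under 0.05 were 0 in MOLT4 at 2 h, 0 and 3 in PSN1 at 2 and 4 h, and 6 in RH4 at 4 h. On this scale the 8 h median over all genes, for KI-CDK9d-32 then KB-0742, was −2.99 and −1.41 log2 units for MOLT4, −1.01 and −0.94 for PSN1, −0.92 and −1.66 for RH4. The members' medians in the same order were −3.22, −1.56, −0.78, −0.73, −0.85 and −1.59. Among genes called higher in relative terms, the value per spike-in was positive for PSMD12 in MOLT4 with KB-0742 at 8 h, for PSMC1 in PSN1 with KB-0742 at 4 and 8 h, and for PSMB4, PSMB7 and PSMC3 in RH4 with KI-CDK9d-32 at 4 h, and negative for all others.

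Few of the relative rises were called on the values the authors deposited, log2(TPM + 1), tested with limma without TMM scaling. The TPM total of these values holds the spike-ins, so a larger spike-in share lowers every gene on this scale. It is therefore not a check apart from the spike-in counts. On the deposited values the median over all genes in the 15 comparisons with vehicle lay between −1.07 and −0.15 log2 units, and at most 1 member was called higher in any of them. The share of all genes called higher there is not given, so the loss of rises cannot be read as particular to the members. At 8 h, with KI-CDK9d-32 and KB-0742 in turn, 46 and 40 of 46 members were lower in MOLT4 (79.5% and 53.7% of all genes), 23 and 26 in PSN1 (35.5% and 35.9%) and 33 and 43 of 44 in RH4 (37.3% and 63.3%). Where a member named below turned direction on the deposited values, that value stands beside it.

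Several of the spike-in counts depended on single libraries. The spike-in share also followed replicate number in RH4 and largely in PSN1 and MOLT4, and the tests per spike-in do not pair libraries. At 8 h the 31 in PSN1 were 9, 18 and 17 without KI-CDK9d-32 replicate 4, vehicle replicate 3 and vehicle replicate 4, and the 27 were 12 without KB-0742 replicate 4. The 34 in RH4 were 21 and 22 without KI-CDK9d-32 replicate 1 and vehicle replicate 3. At 4 h the 12 in MOLT4 were 6 without KI-CDK9d-32 replicate 3 or vehicle replicate 4, and the 23 were 14, 14 and 11 without KB-0742 replicate 3, vehicle replicate 1 and vehicle replicate 4. The 28 in RH4 were 15 and 16 without KB-0742 replicate 1 and vehicle replicate 3. The 12 in PSN1 were 5, 20, 6 and 4 without KB-0742 replicates 1, 2, 3 and 4, and 4, 5 and 25 without vehicle replicates 1, 2 and 4. With KI-CDK9d-32 there the 0 became 1 without vehicle replicate 4. The 4 in MOLT4 at 2 h became 1 without KB-0742 replicate 1, 2 or 3 or vehicle replicate 4.

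**Figure D2:**
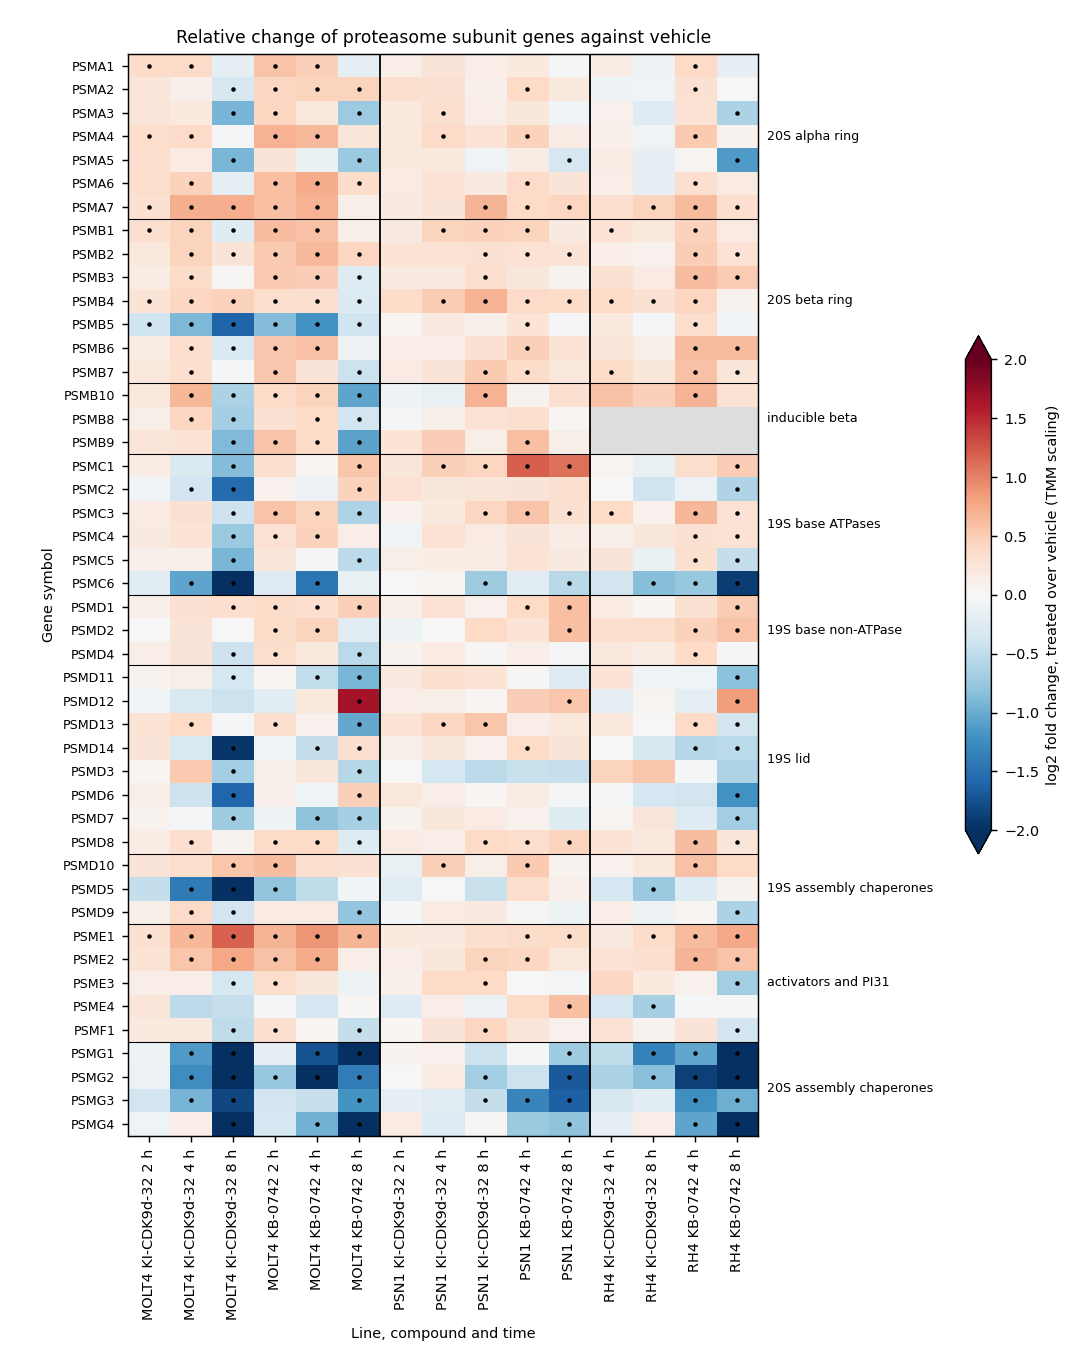
Relative log2 fold change against vehicle (color, TMM scaling) of the 46 tested genes, in rows by part of the proteasome, in the 15 comparisons with vehicle. A point marks a call at an adjusted p below 0.05 and grey cells were not tested. The 20S assembly chaperones form the lowest block, down to −3.45, while the core rings are mostly above 0 at 2 and 4 h, a direction that was negative per spike-in except for the genes named in the text.

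The 4 chaperones of 20S assembly had the lowest median relative change of the 9 parts of the proteasome in all 6 comparisons with vehicle at 8 h. PSMG1 pairs with PSMG2 and PSMG3 with PSMG4, and the pairs help to form the alpha ring. All 4 fell with KB-0742 at 8 h in every line, and with KI-CDK9d-32 in MOLT4, on both scales. Of all genes, 25.8%, 15.1% and 23% were lower in relative terms with KB-0742 in MOLT4, PSN1 and RH4, and 28.7% with KI-CDK9d-32 in MOLT4. Per spike-in the shares were 54.3%, 46.8%, 77.9% and 91%. The chaperones' median with KB-0742 was −2.08 log2 units for MOLT4, −1.22 for PSN1 and −2.38 for RH4, and with KI-CDK9d-32 −2.38, −0.44 and −0.53. With KI-CDK9d-32 at 8 h 2 of 4 fell in PSN1 (9.6% of all genes) and 2 of 4 in RH4 (6.06%). At 4 h with KB-0742 3 of 4 fell in MOLT4 (17.7%), 1 in PSN1 (12.6%) and 4 in RH4 (16.2%).

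The promoters of chaperone genes are shown because these genes moved together, and that of PSME1 because it moved the other way in relative terms. RefSeq promoters (GRCh38.p14), from 250 bases before to 50 after a gene's start, were matched by symbol for 42 of the 48 genes. The PSMG1 promoter lies at chr21:39183402-39183701 on the minus strand. PSMG2 has 2 entries, of which the one with no match to these motifs is not shown, and the other lies at chr18:12658488-12658787 on the plus strand, as do PSMG4 at chr6:3258697-3258996 and PSME1 at chr14:24135944-24136243. Capitals mark matches on either strand to the antioxidant response core TGACNNNGC, part of the element bound by NFE2L1 and NFE2L2, to CCAAT, to the ETS core CCGGAAG, to CACGTG or to TATAAA.
PSMG1: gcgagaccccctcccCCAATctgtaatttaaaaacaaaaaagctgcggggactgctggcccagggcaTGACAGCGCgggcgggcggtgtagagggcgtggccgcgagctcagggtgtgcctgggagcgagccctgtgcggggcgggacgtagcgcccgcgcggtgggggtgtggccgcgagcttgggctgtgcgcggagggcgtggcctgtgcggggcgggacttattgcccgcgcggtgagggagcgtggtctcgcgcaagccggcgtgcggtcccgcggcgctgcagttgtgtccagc
PSMG2: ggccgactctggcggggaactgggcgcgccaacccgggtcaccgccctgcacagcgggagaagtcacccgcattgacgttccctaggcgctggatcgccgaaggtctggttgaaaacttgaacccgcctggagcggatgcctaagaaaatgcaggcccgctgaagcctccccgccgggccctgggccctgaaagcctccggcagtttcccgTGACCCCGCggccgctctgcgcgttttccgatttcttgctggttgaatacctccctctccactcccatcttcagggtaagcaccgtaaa
PSMG4: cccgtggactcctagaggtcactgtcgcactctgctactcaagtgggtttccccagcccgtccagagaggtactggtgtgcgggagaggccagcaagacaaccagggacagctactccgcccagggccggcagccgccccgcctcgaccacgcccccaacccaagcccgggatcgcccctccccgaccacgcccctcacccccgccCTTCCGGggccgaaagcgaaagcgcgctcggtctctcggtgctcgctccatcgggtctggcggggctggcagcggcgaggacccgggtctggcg
PSME1: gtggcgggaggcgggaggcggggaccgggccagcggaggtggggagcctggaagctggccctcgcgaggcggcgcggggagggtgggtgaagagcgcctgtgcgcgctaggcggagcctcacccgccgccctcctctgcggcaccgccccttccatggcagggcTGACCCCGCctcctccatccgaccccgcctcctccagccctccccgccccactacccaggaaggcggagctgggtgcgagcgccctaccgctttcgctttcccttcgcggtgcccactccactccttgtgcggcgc
Counted from the start site, the response core was found at −183 in PSMG1, −39 in PSMG2 and −86 in PSME1, CCAAT at −235 in PSMG1, and the ETS core at −44 in PSMG4, on the minus strand. Over the 42 genes, TGACNNNGC was in 15 (35.7%, against 16.1% of 27305 symbols with a promoter of the same length) and CCGGAAG in 15 (35.7% against 12.2%). CCAAT was in 20 (47.6% against 39.7%), CACGTG in 3 (7.14% against 8.78%) and TATAAA in 5 (11.9% against 14.0%). No match overlapped a match to another of these motifs. A match describes the letters of these windows and not binding.

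PSMG1 in MOLT4 at 8 h was at 49.1, 53.4, 66.2 and 47.0 CPM (TMM-scaled) in the 4 vehicle libraries. It was at 4.05, 3.65, 8.07 and 3.78 CPM with KB-0742 and 3.92, 6.06, 10.1 and 2.33 CPM with KI-CDK9d-32. All treated libraries lay below all vehicle libraries, and PSMG1 was 10.9-fold lower with KB-0742 (log2 fold change −3.45, SE 0.25, adjusted p = 1.2e-16) and 10.2-fold lower with KI-CDK9d-32 (−3.35, SE 0.27, adjusted p = 2.0e-15). Per spike-in these were −4.76 and −6.32. The treated libraries held 1598283 to 2897127 gene counts, so these low levels rest on few reads. At 4 h the log2 fold changes were −1.74 and −1.14, both called, and at 2 h −0.16 and −0.10, neither called. In RH4 at 8 h it was at 32.5, 45.7, 41.3 and 38.5 CPM with vehicle and 12.1, 5.06, 2.34 and 1.65 with KB-0742, 7.02-fold lower (−2.81, SE 0.33, adjusted p = 8.9e-09). With KI-CDK9d-32 the RH4 libraries held 11.6, 18.7, 17.1 and 14.2 CPM, all below vehicle (−1.35, SE 0.27, adjusted p = 0.00038). PSN1 had 88.8, 64.9, 65.6 and 58.2 CPM with vehicle, 38.6, 46.6, 47.9 and 34.8 with KB-0742 (−0.72, SE 0.17, adjusted p = 0.0012) and 47.1, 55.8, 55.9 and 49.6 with KI-CDK9d-32. The degrader libraries lay below the vehicle libraries there too, but the change did not pass the test (−0.41, SE 0.17, adjusted p = 0.076).

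PSMG2 in MOLT4 at 4 h was at 34.7, 51.2 and 37.4 CPM with vehicle, 7.77, 6.31, 6.24 and 8.51 with KB-0742 (log2 fold change −2.49) and 11.4, 16.7, 21.4 and 21.2 with KI-CDK9d-32 (−1.24). The 3 groups did not overlap. Of the 4 chaperones it alone was called at 2 h, with KB-0742 in MOLT4 (−0.76, SE 0.26, adjusted p = 0.024, and 0.11 without KB-0742 replicate 1). In PSN1 at 8 h it was at 53.7, 43.0, 40.3 and 40.7 CPM with vehicle, 12.4, 14.7, 17.1 and 10.9 with KB-0742 (−1.67, SE 0.19, adjusted p = 9.9e-09) and 26.9, 26.6, 30.6 and 26.8 with KI-CDK9d-32 (−0.68, SE 0.18, adjusted p = 0.0051). RH4 at 8 h had the same order of groups, from 30.2 to 35.2 CPM with vehicle through 17.9 to 19.5 with KI-CDK9d-32 to 2.53 to 9.88 with KB-0742, without overlap in either line.

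PSMG3 in PSN1 at 8 h was at 144, 188, 145 and 161 CPM with vehicle and 38.6, 76.9, 61.1 and 27.0 with KB-0742, 3.11-fold lower (−1.64, SE 0.18, adjusted p = 1.2e-08). With KI-CDK9d-32 it was at 89.2 to 127 CPM (−0.48, SE 0.17, adjusted p = 0.047, and 0.16 without KI-CDK9d-32 replicate 4). PSMG4 in MOLT4 at 8 h went from 33.8 to 36.6 CPM with vehicle to 2.70 to 7.18 with KB-0742 (log2 fold change −2.76) and 1.84 to 10.3 with KI-CDK9d-32 (−2.53). In RH4 PSMG4 was at 11.7, 9.38, 12.0 and 10.9 CPM with vehicle and 0.550, 2.53, 4.68 and 0 with KB-0742, where the groups did not overlap (−2.40, SE 0.44, adjusted p = 1.7e-05), and at 8.49, 13.3, 15.1 and 11.3 with KI-CDK9d-32, which overlapped vehicle (0.14, SE 0.32, adjusted p = 0.83). In PSN1 its fall with KB-0742 was −0.80, SE 0.30, adjusted p = 0.041, and the adjusted p was 0.20 without vehicle replicate 4.

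**Figure D3:**
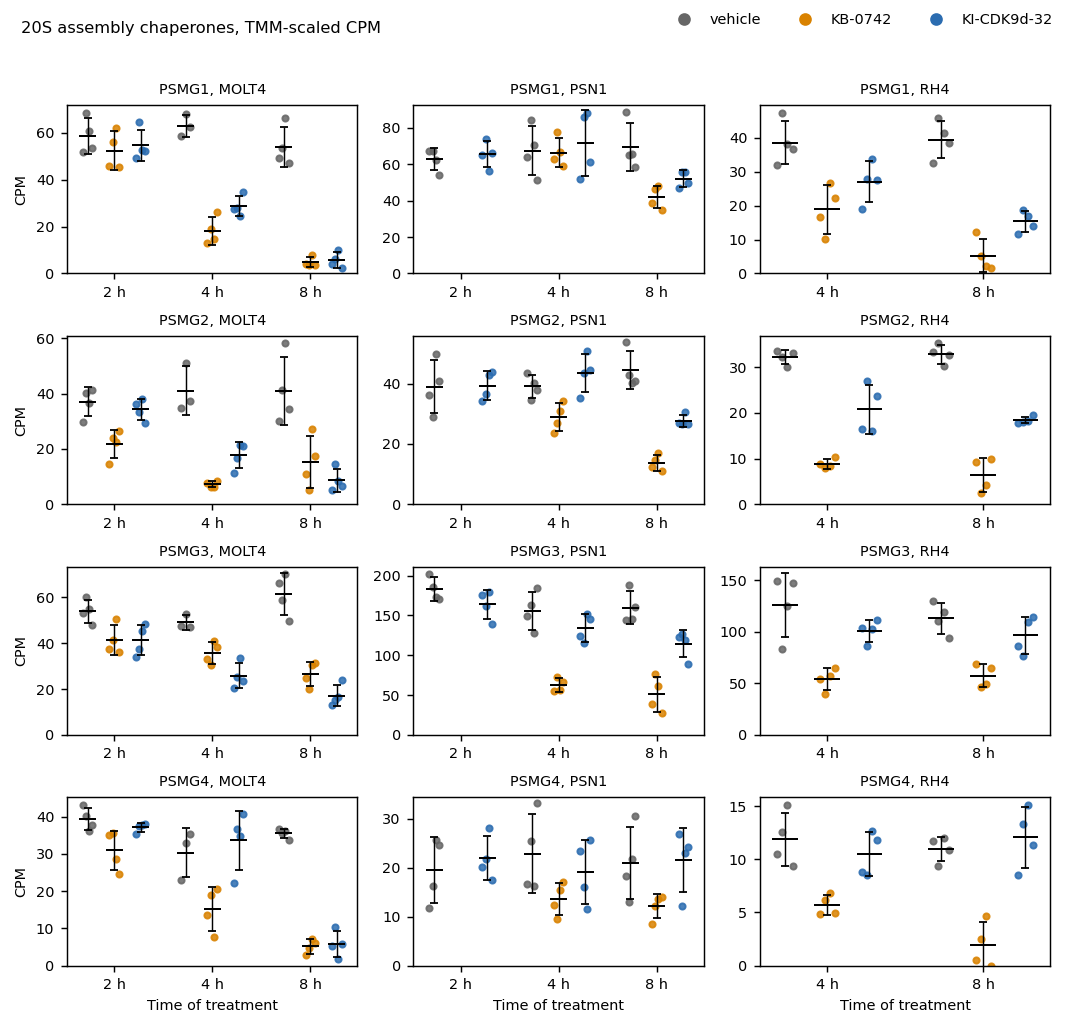
Level of PSMG1, PSMG2, PSMG3 and PSMG4 in TMM-scaled CPM in every library (points), with group means and 1 SD, by line, treatment and time in hours. In MOLT4 at 8 h all treated libraries lie below all vehicle libraries for the 4 genes, a separation that was not counted over all genes. In RH4 at 8 h PSMG4 is at 0 to 4.68 CPM with KB-0742 and 8.49 to 15.1 with KI-CDK9d-32.

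The genes of the 20S rings were called higher early with KB-0742. Of the 7 tested alpha genes 6 rose in MOLT4 at 2 h, 5 at 4 h, and 4 in PSN1 and 5 in RH4 at 4 h, relative to other genes, where 13.2%, 18.1%, 11.3% and 15.4% of all genes were called higher. Of the 7 constitutive beta genes 6 and 5 rose in MOLT4 at 2 and 4 h, 6 in PSN1 and 7 in RH4 at 4 h. Per spike-in all 14 had negative values in these 4 comparisons. At 8 h with KB-0742 2 alpha genes were higher and 2 lower in MOLT4 (23.4% and 25.8% of all genes), where PSMA5 was at −0.74 and PSMA3 at −0.73 log2 units. In RH4 PSMA5 fell to −1.13 (SE 0.14, adjusted p = 5.2e-08). PSMA7 rose in relative terms in MOLT4 with KI-CDK9d-32 at 8 h (0.73, SE 0.07, adjusted p = 3.8e-12) and was at −2.07 per spike-in and −0.996, adjusted p = 8.5e-06 in limma on the deposited values.

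PSMB5 carries the chymotrypsin-like site that proteasome inhibitor drugs bind. In MOLT4 at 8 h its vehicle libraries held 204, 209, 207 and 178 CPM. With KI-CDK9d-32 it was at 57.4, 61.8, 75.3 and 69.9 CPM, 3.03-fold lower and below every vehicle library (log2 fold change −1.60, SE 0.13, adjusted p = 1.1e-15, and −4.42 per spike-in). KB-0742 gave 146, 105, 173 and 179 CPM at 8 h, where the highest library reached into the vehicle range (−0.40, SE 0.11, adjusted p = 0.0028). At 4 h it gave 94.5, 93.6, 84.6 and 81.4 CPM against 207, 193 and 211 with vehicle (−1.20, SE 0.13, adjusted p = 4.2e-11). In PSN1 at 8 h PSMB5 was at 323 to 411 CPM with vehicle, 313 to 374 with KB-0742 and 346 to 420.5 with KI-CDK9d-32, and both treated groups overlapped vehicle (−0.02 and 0.10, adjusted p = 0.89 and 0.53). RH4 overlapped as well, at 567 to 658, 507 to 656 and 516 to 665 CPM (−0.06 and −0.04, adjusted p = 0.72 and 0.86). The KI-CDK9d-32 effect at 8 h in MOLT4 minus that in PSN1 was −1.62, SE 0.16, adjusted p = 1.4e-13, and minus that in RH4 −1.499, SE 0.16, adjusted p = 3.8e-12. PSMB5 was the 1 constitutive ring gene called lower in MOLT4 at 2 h, with KI-CDK9d-32 (−0.39, with an adjusted p of 0.087 without KI-CDK9d-32 replicate 1) and KB-0742 (−0.87).

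PSMB6, of the caspase-like site, was at 0.58, SE 0.10, adjusted p = 4.2e-06 with KB-0742 in MOLT4 at 4 h and −0.11 at 8 h (adjusted p = 0.34), with −0.69 and −1.42 per spike-in. In limma on the deposited values the 4 h change was −0.44, adjusted p = 0.060. In RH4 it was at 0.63 and 0.63 log2 units, both called, and at −0.41 and −0.96 per spike-in. On the deposited values limma gave −0.13, adjusted p = 0.32 at 4 h and −0.45, adjusted p = 0.00071 at 8 h. PSMB7, of the trypsin-like site, fell in MOLT4 with KB-0742 at 8 h (−0.43, SE 0.11, adjusted p = 0.00069) and was at −0.03 with KI-CDK9d-32 (adjusted p = 0.83). Of the inducible subunits, PSMB10 in MOLT4 at 4 h was at 148, 172 and 146 CPM with vehicle and 246, 243, 244 and 252 with KI-CDK9d-32, higher in relative terms without overlap (0.66, SE 0.14, adjusted p = 0.00014) but at −0.28 per spike-in and −0.070, adjusted p = 0.80 in limma on the deposited values. At 8 h it was at 128, 108, 158 and 111 CPM with vehicle, 57.6, 45.4, 82.5 and 55.2 with KB-0742 (−1.06, SE 0.14, adjusted p = 8.1e-09) and 64.6, 83.0, 93.7 and 84.4 with KI-CDK9d-32 (−0.63, SE 0.14, adjusted p = 0.00015). Both treated groups now lay below vehicle. PSMB9 was at −1.08, SE 0.16, adjusted p = 1.3e-07 with KB-0742 and −0.89, SE 0.16, adjusted p = 9.6e-06 with KI-CDK9d-32. PSMB8 was at −0.69, SE 0.16, adjusted p = 0.00044 with KI-CDK9d-32, and after KB-0742 at −0.39, SE 0.15, adjusted p = 0.033, where the adjusted p was 0.16 without vehicle replicate 3. In PSN1 at 8 h 0 of these 3 were called lower by edgeR and none had an unadjusted p under 0.05 for a fall, and PSMB10 was at 0.69 with KI-CDK9d-32 (adjusted p = 0.013, and 0.061 without vehicle replicate 1).

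The 6 ATPases of the 19S base were all lower in MOLT4 with KI-CDK9d-32 at 8 h (28.7% of all genes), with a median of −0.89 log2 units. With KB-0742 2 were higher and 2 lower (23.4% and 25.8% of all genes). PSMC6 had the lowest value of the 6 with KI-CDK9d-32. Its vehicle libraries held 64.8, 72.6, 75.4 and 60.9 CPM, the KB-0742 libraries 44.6, 64.1, 72.2 and 69.6 and the KI-CDK9d-32 libraries 9.14, 8.49, 6.43 and 6.99. The first 2 groups overlapped, and the degrader group lay below both, 8.68-fold lower than vehicle (−3.12, SE 0.21, adjusted p = 2.0e-18, against −0.13 and adjusted p = 0.50 for KB-0742). Per spike-in these were −5.94 and −1.40. At 4 h PSMC6 had been lower with both, at 23.3 to 29.8 CPM with KB-0742 and 27.9 to 40.2 with KI-CDK9d-32 against 69.6 to 86.7 with vehicle. In RH4 at 8 h the inhibitor gave the lower level, 18.7 to 26.4 CPM (−1.89, SE 0.19, adjusted p = 1.1e-10), against 40.3 to 58.2 with KI-CDK9d-32 (−0.85, SE 0.17, adjusted p = 0.00033) and 66.5 to 95.8 with vehicle, with no overlap. PSMC2 in MOLT4 at 8 h was at −1.53 with KI-CDK9d-32 and 0.46 after KB-0742, both called, the latter at −0.85 per spike-in. PSMC4 was at −0.74, SE 0.12, adjusted p = 6.7e-07 and 0.13, SE 0.11, adjusted p = 0.34. PSMC1 in PSN1 with KB-0742 was at 1.20 at 4 h and 1.103 at 8 h, but counts assigned to its pseudogene PSMC1P1 made up 19.9% of the joint counts there, 20.01% in MOLT4 and 21.4% in RH4. PSMC1 is therefore uncertain in all 3 lines, also as 1 of the higher ATPases with KB-0742 in MOLT4. PSMD4, the ubiquitin receptor of the base, fell in MOLT4 at 8 h with KI-CDK9d-32 (−0.41, SE 0.11, adjusted p = 0.0018) and KB-0742 (−0.54, SE 0.11, adjusted p = 4.2e-05).

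In the lid, 5 of 8 genes fell and 0 rose with KI-CDK9d-32 in MOLT4 at 8 h (28.7% and 20.8% of all genes). With KB-0742 5 fell and 3 rose (25.8% and 23.4%). PSMD14, the deubiquitinase that removes the chain from a bound substrate, was at 99.8, 112, 130.03 and 101 CPM with vehicle. It was at 26.1, 24.9, 19.3 and 41.9 with KI-CDK9d-32, 3.85-fold lower (−1.95, SE 0.16, adjusted p = 5.1e-15), and at 141, 131, 146 and 133 with KB-0742, above every vehicle library (0.32, SE 0.13, adjusted p = 0.043, and 0.12 without vehicle replicate 1) but at −0.998 per spike-in and −0.55, adjusted p = 0.021 in limma on the deposited values. PSMD12, a lid scaffold, was at 38.3, 32.3, 37.5 and 27.7 CPM with vehicle and 110.3, 104, 115 and 99.9 with KB-0742, 3.15-fold higher in relative terms (1.66, SE 0.17, adjusted p = 1.9e-11) and at 0.35 per spike-in, which was not called. With KI-CDK9d-32 it was at 19.6 to 33.1 CPM (−0.42, SE 0.20, adjusted p = 0.070). In RH4 with KB-0742 it was at 0.83, SE 0.19, adjusted p = 0.00034, −0.78 per spike-in and −0.076, adjusted p = 0.74 in limma on the deposited values. PSMD11, another lid scaffold, fell with KB-0742 at 8 h in MOLT4 (−0.92, SE 0.12, adjusted p = 3.2e-09) and RH4 (−0.82, SE 0.11, adjusted p = 2.7e-08), and in MOLT4 with KI-CDK9d-32 (−0.35, SE 0.11, adjusted p = 0.0099, and 0.072 without KI-CDK9d-32 replicate 3). The base chaperone PSMD5 in MOLT4 at 8 h went from 15.5, 15.5, 16.1 and 16.1 CPM with vehicle to 1.31, 1.82, 1.84 and 5.82 with KI-CDK9d-32, without overlap (−2.47, SE 0.33, adjusted p = 1.5e-08), and was at 12.6 to 18.5 with KB-0742 (−0.06, SE 0.25, adjusted p = 0.87).

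PSME1 had the highest relative change of the 46 genes in MOLT4 with KI-CDK9d-32 at 8 h. It went from 1080.0, 1151, 1242 and 1058 CPM with vehicle to 2418, 2249, 2909 and 2719.7, 2.27-fold higher (1.18, SE 0.08, adjusted p = 1.8e-18), and to 1818, 1944, 1898 and 1566 with KB-0742 (0.67, SE 0.08, adjusted p = 2.9e-10). The 3 groups did not overlap. Per spike-in it was at −1.65 and −0.65, the former the smallest fall of the 46 genes. On the deposited values limma gave a fall with KI-CDK9d-32 (−0.55, adjusted p = 0.00030) and −0.23, adjusted p = 0.12 with KB-0742. PSME1 was at 0.76, SE 0.10, adjusted p = 7.7e-08 in RH4 with KB-0742, −0.84 per spike-in and −0.32, adjusted p = 0.012 in limma on the deposited values. PSME2, its partner in PA28, was at 0.78, SE 0.10, adjusted p = 9.9e-09 with KI-CDK9d-32 in MOLT4, −2.05 per spike-in and −0.99, adjusted p = 2.1e-07 in limma on the deposited values. PSMF1, which encodes the inhibitor PI31, fell in MOLT4 at 8 h with KI-CDK9d-32 (−0.51, SE 0.09, adjusted p = 1.1e-05) and KB-0742 (−0.48, SE 0.09, adjusted p = 2.4e-05). In PSN1 it was at 0.43, SE 0.11, adjusted p = 0.0036 with KI-CDK9d-32, −0.52 per spike-in and −0.19, adjusted p = 0.36 in limma on the deposited values.

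**Figure D4:**
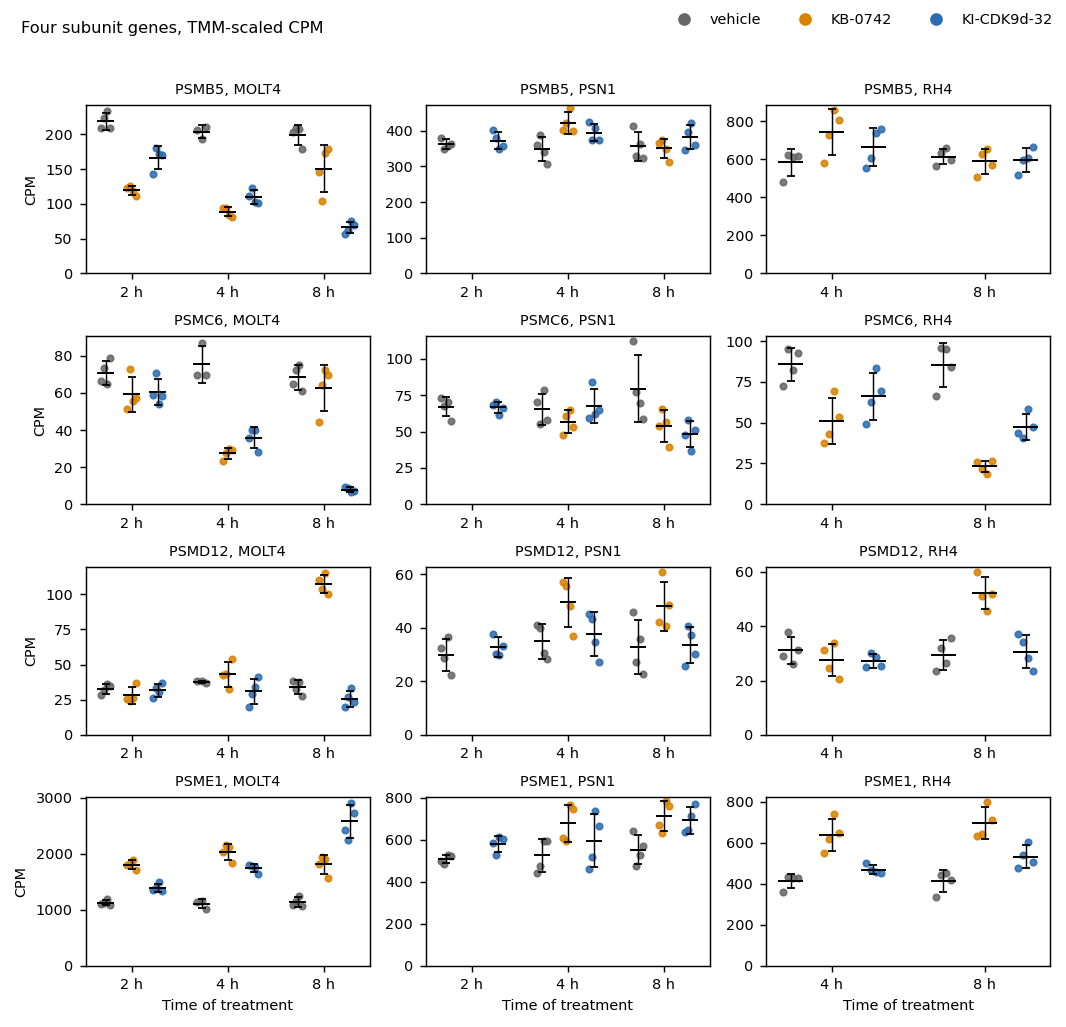
Level of PSMB5, PSMC6, PSMD12 and PSME1 in TMM-scaled CPM in every library (points), with group means and 1 SD, by line, treatment and time in hours. In MOLT4 at 8 h PSMC6 lies at 6.43 to 9.14 CPM with KI-CDK9d-32 and 44.6 to 72.2 with KB-0742, and PSMD12 at 99.9 to 115 CPM with KB-0742. The relative rise of PSME1 was negative per spike-in at 8 h in all 3 lines.

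The 2 compounds were compared directly in 7 combinations of line and time, with p-values adjusted over all genes tested in each. In MOLT4 11 members differed at 2 h (18.3% of all genes), 14 at 4 h (35.7%) and 27 at 8 h (58.5%). PSN1 had 7 at 4 h (17.4%) and 15 at 8 h (24.8%), and RH4 14 at 4 h (25.8%) and 26 at 8 h (38.4%). Per spike-in the counts were 0, 1 and 40 in MOLT4 (4.16%, 14.1% and 57.1% of all genes), 1 and 1 in PSN1 (10.6% and 12.2%) and 13 and 24 in RH4 (35.5% and 39.6%), with 2 at an unadjusted p under 0.05 in MOLT4 at 2 h. All 40 in MOLT4 at 8 h were lower with KI-CDK9d-32, and all 24 in RH4 at 8 h were higher with it. The shares of all genes given here are for either direction. The median over all genes per spike-in against vehicle at 8 h was likewise lower with KI-CDK9d-32 in MOLT4 and higher with it in RH4, so the shared direction is not particular to the members. In relative terms in MOLT4 at 8 h, the lowest with KI-CDK9d-32 against KB-0742 were PSMC6 (−2.99, SE 0.21, adjusted p = 2.3e-17), PSMD5 (−2.42, SE 0.34, adjusted p = 3.4e-08) and PSMD14 (−2.26, SE 0.16, adjusted p = 3.7e-17). PSMD13 of the lid was the highest (0.99, SE 0.13, adjusted p = 1.7e-08, and −0.48 per spike-in). In RH4 at 8 h the highest were PSMG4 (2.54, SE 0.44, adjusted p = 1.1e-05), PSMG2 (1.53, SE 0.28, adjusted p = 3.4e-05) and PSMG1 (1.46, SE 0.36, adjusted p = 0.0014), and in PSN1 PSMG3 (1.16, SE 0.18, adjusted p = 8.3e-06) and PSMG2 (0.997, SE 0.20, adjusted p = 0.00017). For PSMG1 in MOLT4 no difference was detected (0.10, 95% interval from −0.62 to 0.82, adjusted p = 0.83), nor for PSMB5 in RH4 (0.02, 95% interval from −0.21 to 0.24, adjusted p = 0.93). Without the filter on low counts the relative counts were 6 and 7 in MOLT4 at 2 and 4 h, 2 and 7 in PSN1 at 4 and 8 h and 9 in RH4 at 4 h. The relative count in MOLT4 at 2 h was 6 without KI-CDK9d-32 replicate 1. At 4 h there it was 9, 9, 8 and 9 without KB-0742 replicate 2, KB-0742 replicate 4, KI-CDK9d-32 replicate 1 and KI-CDK9d-32 replicate 2. In PSN1 it was 4 at 4 h without KB-0742 replicate 1 or 3 or KI-CDK9d-32 replicate 2, and 7 at 8 h without KI-CDK9d-32 replicate 3.

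**Figure D5:**
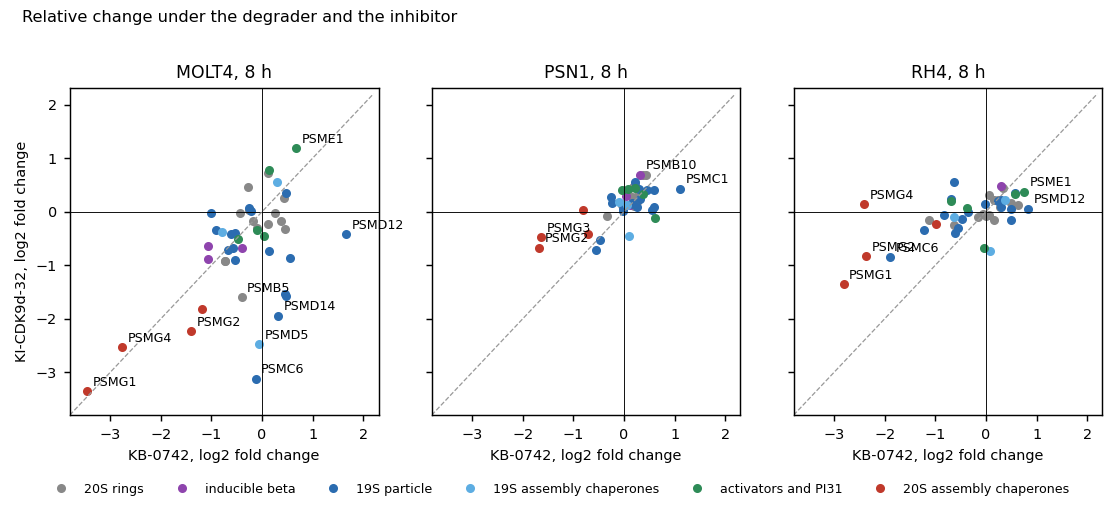
Relative log2 fold change against vehicle at 8 h of each tested proteasome gene with KB-0742 (horizontal axis) and KI-CDK9d-32 (vertical axis), by line, with colors for parts of the proteasome and a line of equal values. Both axes share the vehicle libraries. In MOLT4 PSMC6, PSMD14 and PSMD5 lie below the line of equal values, at −3.12, −1.95 and −2.47 on the vertical axis, and in RH4 PSMG4 lies above it.

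The change of each effect from 4 h to 8 h was tested in the same fits, first in relative terms. In MOLT4 26 of 46 genes changed with KI-CDK9d-32 (12.5% of all genes), with a members' median of −0.67 log2 units, and 28 with KB-0742 (17.7%), with −0.51. With KB-0742 PSMD12 (1.45), PSMC6 (1.32) and PSMB5 (0.80) moved up between the times, and PSMG4 (−1.82) and PSMG1 (−1.71) moved down. In PSN1 0 changed with KI-CDK9d-32 by edgeR (0.016%), 6 with an unadjusted p under 0.05, and 2 with KB-0742 (1.88%), PSMG2 (−1.25) and PSMA5 (−0.48). In RH4 0 changed with KI-CDK9d-32 (0%), 5 with an unadjusted p under 0.05, and 13 with KB-0742 (8.49%), among them PSMG1 (−1.78) and PSMD12 (1.01). Per spike-in edgeR called 44 with KI-CDK9d-32 and 0 after KB-0742 in MOLT4 (45.5% and 0% of all genes), 0 and 0 in PSN1 (0% and 0.016%) and 0 and 5 in RH4 (0.00829% and 2.53%). Where these counts are 0, the members at an unadjusted p under 0.05 were 6 in MOLT4, 2 and 1 in PSN1 and 10 in RH4. Per spike-in the MOLT4 changes with KB-0742 were 1.39 for PSMD12, 1.36 for PSMC6, 0.83 for PSMB5, −1.90 for PSMG4 and −1.74 for PSMG1, none of them called. Leaving out libraries was not run for the counts per spike-in between compounds or times.

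Relative effects at 8 h were compared between lines in 1 fit over all 91 libraries, in which 15881 genes and 46 members were tested. The filter was applied to all lines together, so genes with few counts in a line compared are included in these shares. Among the members, PSMB8 and PSMB9 had 9 and 3 counts in the RH4 libraries. For KI-CDK9d-32 28 members differed between MOLT4 and PSN1 (17.6% of all genes) and 22 between MOLT4 and RH4 (16.7%), with medians of −0.58 and −0.47 log2 units. Between PSN1 and RH4 0 differed by edgeR (0.573%), 9 had an unadjusted p under 0.05, and DESeq2 called 3. For KB-0742 20 differed between MOLT4 and PSN1 (12.3%), 15 between MOLT4 and RH4 (9.38%) and 16 between PSN1 and RH4 (7.83%). For PSMC6 the effect in MOLT4 minus that in PSN1 was −2.33, SE 0.29, adjusted p = 4.0e-10 for KI-CDK9d-32 and 0.34, SE 0.24, adjusted p = 0.43 for KB-0742. For PSMB10 it was −1.25, SE 0.27, adjusted p = 0.00023 and −1.47, SE 0.27, adjusted p = 3.0e-05.

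Genes that work with the proteasome but fall outside the symbol rule were followed in 5 lists, at 8 h and in relative terms. Of all genes, with KB-0742 and KI-CDK9d-32 in turn, 23.4% and 20.8% were higher and 25.8% and 28.7% lower in MOLT4. The same shares were 15.1% and 11% against 15.1% and 9.6% in PSN1, and 22.5% and 9.2% against 23% and 6.06% in RH4. Of the proteasome partners, 8 of 12 were higher and 3 lower with KB-0742 in MOLT4, and 1 and 7 with KI-CDK9d-32. In the same order, the counts were 3, 3, 2 and 2 of 13 in PSN1 and 3, 5, 1 and 1 of 13 in RH4. Of the regulators of proteasome genes, 6 of 11 were higher and 1 lower with KB-0742 in MOLT4, and 3 and 3 with KI-CDK9d-32. In the same order, the counts were 5, 1, 1 and 1 of 12 in PSN1 and 4, 2, 2 and 1 of 10 in RH4. Of the ubiquitin and E1 genes, 5 of 9 were higher and 3 lower with KB-0742 in MOLT4, and 5 and 3 with KI-CDK9d-32. In the same order, the counts were 4, 3, 3 and 1 of 9 in PSN1 and 4, 3, 3 and 3 of 9 in RH4. Of the VCP and shuttle factors, 8 of 15 were higher and 4 lower with KB-0742 in MOLT4, and 3 and 3 with KI-CDK9d-32. In the same order, the counts were 5, 0, 4 and 1 of 15 in PSN1 and 7, 2, 1 and 0 of 15 in RH4. Of the parts of cullin-RING ligases, 8 of 18 were higher and 1 lower with KB-0742 in MOLT4, and 3 and 8 with KI-CDK9d-32. In the same order, the counts were 3, 1, 1 and 2 of 18 in PSN1 and 7, 3, 3 and 1 of 18 in RH4.

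POMP, the chaperone that matures the 20S core, fell in MOLT4 with KI-CDK9d-32 (−0.80, adjusted p = 7.6e-06) and was at 0.15, adjusted p = 0.35 with KB-0742. NFE2L1, the activator of proteasome genes, was higher with KB-0742 in MOLT4 (1.11, adjusted p = 0.00098, −0.20 per spike-in) and at −0.39, adjusted p = 0.32 with KI-CDK9d-32. DDI2, the protease that processes NFE2L1, was at 1.41, adjusted p = 0.0033 with KB-0742 and 0.02 per spike-in. NFE2L2 was higher with KB-0742 in RH4 (1.28, adjusted p = 1.2e-07, −0.31 per spike-in) and PSN1 (0.95, adjusted p = 4.9e-05, 0.03 per spike-in). CRBN, a substrate receptor used by many degraders, fell with KI-CDK9d-32 in MOLT4 (−1.25, adjusted p = 0.00037) and PSN1 (−1.22, adjusted p = 8.6e-05) and with KB-0742 in PSN1 (−0.95, adjusted p = 0.00094). In RH4 it was at −0.38, adjusted p = 0.37 with KI-CDK9d-32 and −0.25, adjusted p = 0.47 with KB-0742. The 2 called genes of these lists with the largest change were UBLCP1 (−2.15, adjusted p = 0.00011) and NAE1 (−2.10, adjusted p = 1.3e-13) in MOLT4 with KB-0742 and PLAA (−1.88, adjusted p = 3.3e-07) and NGLY1 (−1.79, adjusted p = 1.6e-08) with KI-CDK9d-32. In PSN1 they were RAD23B (2.19, adjusted p = 1.6e-06) and FBXW7 (1.71, adjusted p = 0.0038) with KB-0742 and AKIRIN2 (−1.59, adjusted p = 0.0018) and MAFG (1.35, adjusted p = 7.2e-05) with KI-CDK9d-32, and in RH4 RAD23B (1.52, adjusted p = 0.0034) and STT3A (1.47, adjusted p = 2.1e-15) and NGLY1 (−1.45, adjusted p = 0.00064) and MAFG (1.05, adjusted p = 0.0020). RAD23B, a shuttle factor that brings ubiquitylated proteins to the proteasome, was at 1.30 per spike-in in PSN1 and −0.01 in RH4.

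Among the members, the relative change at 8 h was set beside features that the symbol rule did not use. With KI-CDK9d-32 its Spearman correlation with the vehicle level was 0.48 in MOLT4 (n = 46 genes), 0.41 in PSN1 (46) and 0.25 in RH4 (44), and with KB-0742 0.01, 0.04 and 0.29. The vehicle libraries also enter the change itself. With exonic length it was −0.24, −0.35 and −0.46 with KI-CDK9d-32 and 0.16, −0.07 and −0.37 with KB-0742. With gene span it was −0.23, −0.34 and −0.46, and 0.07, −0.13 and −0.31, in the same order. With the number of exon blocks it was −0.21, −0.29 and −0.26, and 0.11, 0.03 and −0.19. These correlations are across genes, which share libraries and depth and are not independent replicates.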

How the data were processed

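Reduced-volume SMART-seq2 libraries were made from 1 ng of total RNA, after equal amounts of ERCC and SIRV spike-ins had been added to the lysates, per the labels' protocols. Per the submitters' processing notes, Salmon and hg38 were used; the Salmon version is not given in the sources used here. The deposited tables hold estimated counts per gene, as whole numbers, and, beside them, log2 values, log2(TPM + 1), whose TPM total holds the spike-ins. Both hold every library used here, and no further rounding was applied to the counts.

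Relative changes were computed from the counts with edgeR 4.0.16 (R 4.3.3), 1 fit per line, TMM scaling, and a filter at a minimum count of 10 that left out 0.437%, 0.584% and 0.683% of counts in MOLT4, PSN1 and RH4. Changes per spike-in used the summed spike-in counts as library size. The TMM test was tried on simulated counts for MOLT4 KI-CDK9d-32 against vehicle at 8 h, with a small part of the genes changed. Many more genes were called in the data, and spike-in scaling was not simulated. DESeq2 1.42.0, no filter, a replicate block, limma 3.58.1 on the log2 values, ERCC alone and leaving out each library were tried. The members and lists were chosen with earlier results of these data known. Full statistics go to 13 listed members and, in each comparison, to up to 3 called members at either end. Related genes named are POMP, NFE2L1, NFE2L2, DDI2, CRBN, CDK9 once as the target, and up to 2 called genes with the largest change at 8 h per line and compound; 1 further gene of this rule is not reported here.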

Additional observations from a re-analysis of the deposited data

Results flagged for a closer look

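In 7 of 154 groups tested with Dixon's criterion 1 library stood apart from the others, where chance gives about 1 in 20. Summed proteasome counts were lowest in RH4 vehicle 4 h replicate 1 (10595 CPM). Per 1000 spike-in counts they were highest in MOLT4 KB-0742 2 h replicate 4 (86.0) and lowest in PSN1 KB-0742 8 h replicate 4 (29.3). PSMB5 was lowest in MOLT4 vehicle 8 h replicate 4 (178 CPM) and in RH4 vehicle 4 h replicate 1 (479 CPM). PSMG1 was highest in MOLT4 KB-0742 8 h replicate 3 (8.07 CPM), below every MOLT4 vehicle library, and PSMG2 was highest in PSN1 KI-CDK9d-32 8 h replicate 3 (30.6 CPM).

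Effects at 8 h that differed between lines, by edgeR's test of the difference, are listed here for PSMB5 and the 20S assembly chaperones alone. Other members differed too, as counted in the results above. Values are log2 differences of the first line minus the second. For PSMB5 the differences were −0.47 with KB-0742 in MOLT4 minus PSN1, and with KI-CDK9d-32 −1.62 in MOLT4 minus PSN1 and −1.499 in MOLT4 minus RH4. For PSMG1 they were −2.82 in MOLT4 minus PSN1 and 2.15 in PSN1 minus RH4 with KB-0742, and −2.87 and −1.94 in MOLT4 minus PSN1 and minus RH4 with KI-CDK9d-32. PSMG2 with KI-CDK9d-32 differed by −1.48 and −1.34 in MOLT4 minus PSN1 and minus RH4, and PSMG3 by −1.27 and −1.53. PSMG4 differed by −2.04 in MOLT4 minus PSN1 and 1.66 in PSN1 minus RH4 with KB-0742, and by −2.48 and −2.62 in MOLT4 minus PSN1 and minus RH4 with KI-CDK9d-32.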

How the results depend on the processing

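Of 198 calls of named members, 190 kept their direction and call with DESeq2, 163 without the filter, 96 with limma on the deposited log2(TPM + 1) values, and 134 whichever library was left out. With a replicate block 198 kept them. On the TMM scale, same-numbered libraries were at most weakly alike, and the main tests did not pair them. Deviations of same-numbered libraries correlated at −0.02 to 0.18 in the comparisons, and every pair was over 0.1 in 0 of them. The correlations were positive for every pair in PSN1 and RH4, and the replicate block raised several counts in these lines, as listed below. The spike-in share did follow replicate number in RH4 and largely in PSN1 and MOLT4. In every RH4 group it was highest in replicate 1 and lowest in replicate 3, at 12.2% and 7.51% with vehicle at 4 h. In PSN1 it was highest in replicate 4 of each group except vehicle at 8 h. In MOLT4 it was lowest in replicate 4 of each group except KB-0742 at 4 h. At 4 h it was highest in replicate 3 of every MOLT4 group. The replicate block was fitted on the TMM scale alone, so the tests per spike-in do not take this into account. With ERCC alone, the numbers of members called per spike-in stayed within 1.5 times. The causes of the following moves were not tested. With DESeq2 the number of members called went from 7 to 11 in MOLT4 KI-CDK9d-32 2 h, from 0 to 1 in PSN1 KI-CDK9d-32 2 h, from 4 to 8 in RH4 KI-CDK9d-32 4 h, from 0 to 3 in KI-CDK9d-32 effect at 8 h, PSN1 minus RH4. Without the filter on low counts the number of members called went from 11 to 6 in MOLT4 KI-CDK9d-32 against KB-0742 2 h, from 14 to 7 in MOLT4 KI-CDK9d-32 against KB-0742 4 h, from 7 to 2 in PSN1 KI-CDK9d-32 4 h, from 20 to 11 in PSN1 KB-0742 4 h, from 7 to 2 in PSN1 KI-CDK9d-32 against KB-0742 4 h, from 15 to 7 in PSN1 KI-CDK9d-32 against KB-0742 8 h, from 14 to 9 in RH4 KI-CDK9d-32 against KB-0742 4 h. With the replicate block the number of members called went from 0 to 1 in PSN1 KI-CDK9d-32 2 h, from 7 to 11 in PSN1 KI-CDK9d-32 4 h, from 4 to 15 in RH4 KI-CDK9d-32 4 h, from 8 to 14 in RH4 KI-CDK9d-32 8 h, from 13 to 22 in RH4 KB-0742 effect, 8 h minus 4 h. With limma on the deposited log2 values the number of members called went from 7 to 4 in MOLT4 KI-CDK9d-32 2 h, from 29 to 13 in MOLT4 KB-0742 2 h, from 11 to 4 in MOLT4 KI-CDK9d-32 against KB-0742 2 h, from 14 to 9 in MOLT4 KI-CDK9d-32 against KB-0742 4 h, from 7 to 0 in PSN1 KI-CDK9d-32 4 h, from 20 to 13 in PSN1 KB-0742 4 h, from 17 to 27 in PSN1 KB-0742 8 h, from 15 to 7 in PSN1 KI-CDK9d-32 against KB-0742 8 h, from 4 to 2 in RH4 KI-CDK9d-32 4 h, from 8 to 33 in RH4 KI-CDK9d-32 8 h. With libraries left out in turn the counts ran from 3 to 8 in MOLT4 KI-CDK9d-32 2 h, 6 to 12 in MOLT4 KI-CDK9d-32 against KB-0742 2 h, 8 to 15 in MOLT4 KI-CDK9d-32 against KB-0742 4 h, 2 to 6 in PSN1 KI-CDK9d-32 4 h, 11 to 20 in PSN1 KB-0742 4 h, 4 to 6 in PSN1 KI-CDK9d-32 against KB-0742 4 h, 7 to 15 in PSN1 KI-CDK9d-32 against KB-0742 8 h, 2 to 6 in RH4 KI-CDK9d-32 4 h, and per spike-in from 1 to 4 in MOLT4 KB-0742 2 h, 6 to 15 in MOLT4 KI-CDK9d-32 4 h, 11 to 27 in MOLT4 KB-0742 4 h, 0 to 1 in PSN1 KI-CDK9d-32 4 h, 4 to 25 in PSN1 KB-0742 4 h, 9 to 32 in PSN1 KI-CDK9d-32 8 h, 12 to 27 in PSN1 KB-0742 8 h, 15 to 35 in RH4 KB-0742 4 h, 21 to 39 in RH4 KI-CDK9d-32 8 h. With limma on the deposited values 66 calls changed sign, of which 18, marked as called, passed an adjusted p of 0.05 in the opposite direction, with these log2 fold changes: MOLT4 KB-0742 2 h PSMB1 −0.017, PSMB10 −0.26, PSMB6 −0.10, PSMB7 −0.11, PSMB9 −0.10, PSMC4 −0.35, PSMD4 −0.29, PSMF1 −0.28, MOLT4 KB-0742 4 h PSMA6 −0.26, PSMB10 −0.56 (called), PSMB6 −0.44, PSMB8 −0.59 (called), PSMB9 −0.66 (called), PSMC4 −0.53 (called), PSME1 −0.14, PSME2 −0.28, MOLT4 KB-0742 8 h PSMC1 −0.29, PSMD14 −0.55 (called), PSME1 −0.23. Others were MOLT4 KI-CDK9d-32 against KB-0742 4 h PSMB6 0.048, PSME1 0.061, MOLT4 KI-CDK9d-32 against KB-0742 8 h PSMB10 −0.37, PSMB4 −0.10, PSMB7 −0.45 (called), PSMD11 −0.10, PSME1 −0.31 (called), PSME2 −0.21, MOLT4 KI-CDK9d-32 2 h PSME1 −0.0020. Others were MOLT4 KI-CDK9d-32 4 h PSMA7 −0.0080, PSMB10 −0.070, PSMB6 −0.39, PSMB7 −0.40 (called), PSMB8 −0.32, PSME1 −0.075, MOLT4 KI-CDK9d-32 8 h PSMA7 −0.996 (called), PSME1 −0.55 (called), PSME2 −0.99 (called), PSN1 KB-0742 4 h PSMB5 −0.27, PSMB6 −0.092, PSMB7 −0.18, PSMD14 −0.13, PSME1 −0.20. Others were PSN1 KB-0742 8 h PSME1 −0.21, PSN1 KI-CDK9d-32 8 h PSMB7 −0.086, PSMF1 −0.19, RH4 KB-0742 4 h PSMB10 −0.081, PSMB5 −0.39 (called), PSMB6 −0.13, PSMB7 −0.15, PSMC3 −0.078, PSMC4 −0.45 (called), PSMD4 −0.32, PSME1 −0.13, PSME2 −0.17. Others were RH4 KB-0742 8 h PSMB6 −0.45 (called), PSMB7 −0.82 (called), PSMC4 −0.79 (called), PSMD12 −0.076, PSME1 −0.32 (called), RH4 KI-CDK9d-32 against KB-0742 4 h PSMA4 0.064, PSMB6 0.11, PSME1 0.062, RH4 KI-CDK9d-32 against KB-0742 8 h PSME1 0.12. Others were RH4 KI-CDK9d-32 8 h PSMA7 −0.13, PSMB4 −0.26 (called), PSME1 −0.20. Depth limits the low genes, such as PSMG4 and PSMD5, and also PSMG1 and PSMG2 in treated MOLT4 and RH4 libraries.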
